A study of Mus musculus with 24 samples.

Results

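Interferon-stimulated genes were followed through all 24 RNA-seq libraries of a study of mouse embryonic stem cells (ESCs) and expanded potential stem cells (EPSCs), which are ESCs shifted by culture medium towards a wider developmental range. The 48 genes were taken by symbol from a list, and 47 of them were found among the 23095 genes of the J1 table and the 25476 genes of the tet-off table, so that every listed gene except Psmb9 was read (Psmb9 is not analysed here). The list was drawn up with the measured response to loss of Oct4, Sox2 and Nanog in view, and the members are taken here as selected on the Dox comparisons. Levels and fold changes in those comparisons are therefore a description: no p-value is printed for a member there, and a call only says that a value passed the thresholds. The change from ESC to L-EPSC in the tet-off lines uses the same untreated L-EPSC libraries and is likewise given as a description. The J1 comparisons share no library with these and are given with adjusted p-values. As the list was chosen with earlier results of these data known, those p-values may not be independent of that choice.

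The libraries form 12 groups of 2. J1 is a wild-type ESC line, which was sequenced as ESCs (in serum, LIF and 2i medium), as D-EPSCs and as L-EPSCs, named for 2 published EPSC media. D-EPSC medium held LIF, CHIR99021, dimethindene maleate and minocycline hydrochloride. L-EPSC medium held LIF, CHIR99021, PD0325901, A-419259, XAV939, JNK inhibitor VIII and SB203580. The tet-off groups came from 3 established lines, labelled ZHBTc4 (Oct4-cKO), 2TS22C (Sox2-cKO) and NgcKO (Nanog-cKO). In each line both endogenous copies of the named gene are inactivated and the gene is supplied by a transgene that doxycycline (Dox) shuts off, so the untreated cells carry the deletion too. Each tet-off line was sequenced as untreated ESCs, as untreated L-EPSCs and as L-EPSCs given Dox, with no D-EPSC group. Each line is 1 genotype, no group of cells without a transgene was given Dox, and the length of Dox treatment before RNA extraction was not given in the sources used here. According to the methods of the study, EPSCs were taken through passages without feeder cells before RNA was sequenced. ESCs were grown on mouse embryonic fibroblast feeders or on gelatin, and the sources used here do not say which for these libraries.

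Interferons are secreted proteins that warn cells of infection. Type I interferons bind the receptor pair Ifnar1 and Ifnar2, whose kinases phosphorylate Stat proteins. Stat2 acts with Irf9 in the complex ISGF3, which binds the interferon-stimulated response element (ISRE) in the promoters of its target genes, while type II interferon acts through the gamma-activated site. The products of these genes sense viral RNA, block viral replication, attach the ubiquitin-like protein Isg15 to other proteins and raise antigen presentation. Pluripotent cells are known for a weak interferon response.

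Promoters were read for the listed genes because ISGF3 and related factors act there. RefSeq promoters of GRCm38.p6, 250 bases before and 50 after the annotated start, matched 39 of the 48 listed genes by symbol. The ISRE core, spelled GAAANNGAAA and searched on both strands, lay in the promoters of 16 of these 39 genes (41.0%, 95% Wilson interval 27.1 to 56.6%), against 1079 of 27025 genes in the whole promoter table (3.99%). The gamma-activated site, TTCNNNGAA, was found in 7 of the 39 (17.9%, interval 8.98 to 32.7%), against 9.55% of all genes. The genes were listed as interferon targets, so a higher share than over all genes follows from the list and is a description. The intervals take the genes as independent draws, although some are neighbours of the same family. Both motifs were in the promoters of 2 listed genes, Bst2 and Eif2ak2. The promoters of the 5 members with a core and the largest response to Oct4 loss are printed 5′ to 3′ on the strand of the gene, with every base of a core in capitals (a core on the other strand is capitalised as its reverse complement). Base 0 is the annotated first transcribed base. The promoter of Isg15 (chr4:156200769-156201068, minus strand) holds 3 overlapping cores between bases -78 and -57, and that of Gbp3 (chr3:142559794-142560093, plus strand) holds 2 between -45 and -30. Those of Rsad2 (chr12:26456403-26456702, minus strand), Ifih1 (chr2:62646206-62646505, minus strand) and Ddx58 (chr4:40239776-40240075, minus strand) hold 1 each, from -120 to -111, from 32 to 41 and from 2 to 11.
Isg15: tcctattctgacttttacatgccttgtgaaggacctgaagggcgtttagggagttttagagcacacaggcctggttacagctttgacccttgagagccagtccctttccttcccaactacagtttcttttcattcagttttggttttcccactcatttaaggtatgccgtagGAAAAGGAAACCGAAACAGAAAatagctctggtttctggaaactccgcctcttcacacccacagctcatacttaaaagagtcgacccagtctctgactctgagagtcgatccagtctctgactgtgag
Rsad2: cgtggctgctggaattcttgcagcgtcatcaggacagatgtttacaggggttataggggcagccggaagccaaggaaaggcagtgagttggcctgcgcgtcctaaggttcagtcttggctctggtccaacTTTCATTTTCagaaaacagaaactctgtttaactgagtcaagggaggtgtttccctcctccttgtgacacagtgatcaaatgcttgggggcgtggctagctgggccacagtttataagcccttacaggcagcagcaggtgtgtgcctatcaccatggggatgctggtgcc
Gbp3: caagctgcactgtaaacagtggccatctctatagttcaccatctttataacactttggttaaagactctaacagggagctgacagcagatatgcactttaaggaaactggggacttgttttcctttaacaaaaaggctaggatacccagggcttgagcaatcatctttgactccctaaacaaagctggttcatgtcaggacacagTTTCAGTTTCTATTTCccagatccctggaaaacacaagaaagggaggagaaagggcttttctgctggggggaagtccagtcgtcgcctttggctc
Ifih1: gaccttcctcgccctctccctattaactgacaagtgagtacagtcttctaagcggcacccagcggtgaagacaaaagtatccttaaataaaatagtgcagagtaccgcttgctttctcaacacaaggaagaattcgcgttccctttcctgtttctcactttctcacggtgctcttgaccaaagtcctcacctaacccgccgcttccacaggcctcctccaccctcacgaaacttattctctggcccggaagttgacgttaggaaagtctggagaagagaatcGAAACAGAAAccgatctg
Ddx58: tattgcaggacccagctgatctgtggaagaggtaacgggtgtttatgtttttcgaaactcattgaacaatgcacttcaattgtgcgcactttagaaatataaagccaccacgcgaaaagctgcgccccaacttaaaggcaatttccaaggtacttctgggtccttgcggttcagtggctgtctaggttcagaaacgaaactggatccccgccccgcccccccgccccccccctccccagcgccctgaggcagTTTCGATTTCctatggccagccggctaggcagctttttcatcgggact

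A letter match is a description of the sequence and does not show that a factor was bound. With Dox in the Oct4-cKO line, the 16 measured members with a core had a median log2 fold change of 3.65, and the 22 measured members whose matched promoter lacked it had 1.97. The ranges overlapped, from 0.00 to 7.52 with the core and from 0.14 to 4.86 without it. A fitted log2 fold change beyond 1 was seen in 14 of the 16 and in 18 of the 22. The 18 include Psmb8 (1.09), at a few reads at most, and Herc6 (1.43), neither of which was called. Stat2, with a core, had the lowest value of the first set, while Samd9l and Irf7, both without one, had large values of 4.86 and 4.52. Rtp4, Usp18, Oas2, Dhx58, Mx2, Ifi27, Parp9, Parp14 and Zbp1 had no matched promoter and are in neither set. Among them are the large responders Rtp4 and Mx2 and the lowest member, Dhx58. The members are taken as chosen on these fold changes, and the difference between the sets was not tested.

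All values below are normalized counts, that is reads per gene divided by a size factor of the library, and rest on 10807631 to 15069899 reads on genes per library. The J1 and tet-off tables were normalized separately, so levels across them are not tested. In every comparison each group has 2 libraries, and the labels do not say that these came from separate cultures. Adjusted p-values and SEs rest on the spread between libraries of the same group, which may be technical. That spread is pooled over all groups of a table and drawn towards a trend over all genes. The targeted genes fell in the Dox groups: Pou5f1 (Oct4) was at 6420.1 and 6316 without and 162 and 184 with Dox in the Oct4-cKO line, and Sox2 at 4966 and 4701 without and 47.0 and 53.1 with Dox in the Sox2-cKO line. Nanog remained at 3166 and 3112 with Dox, against 9119 and 8847 without, in the Nanog-cKO line. This fall in RNA is called Nanog reduction below, a name for the RNA only. Protein was not read here, but the study reported loss of Nanog protein after Dox in these L-EPSCs by Western blot. Each line with Dox had less of the other factors too: Sox2 was at 260.3 and 229.8 in the Oct4-cKO Dox libraries, and Pou5f1 at 3291 and 3073 in the Sox2-cKO Dox libraries. Summed pluripotent markers (10 of 10 detected) fell with Dox from means of 56019 to 7088 in the Oct4-cKO line, from 61366 to 12454 in the Sox2-cKO line and from 64355 to 39719 in the Nanog-cKO line. Summed trophoblast markers (10 of 10 detected) went from 4578 to 29477, from 2050 to 12346 and from 663 to 1029 in the same order. The part of these changes in cell identity in the results for interferon-stimulated genes was not tested, and in bulk RNA fewer cells of a type and less RNA per cell cannot be told apart.

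**Figure D1:**
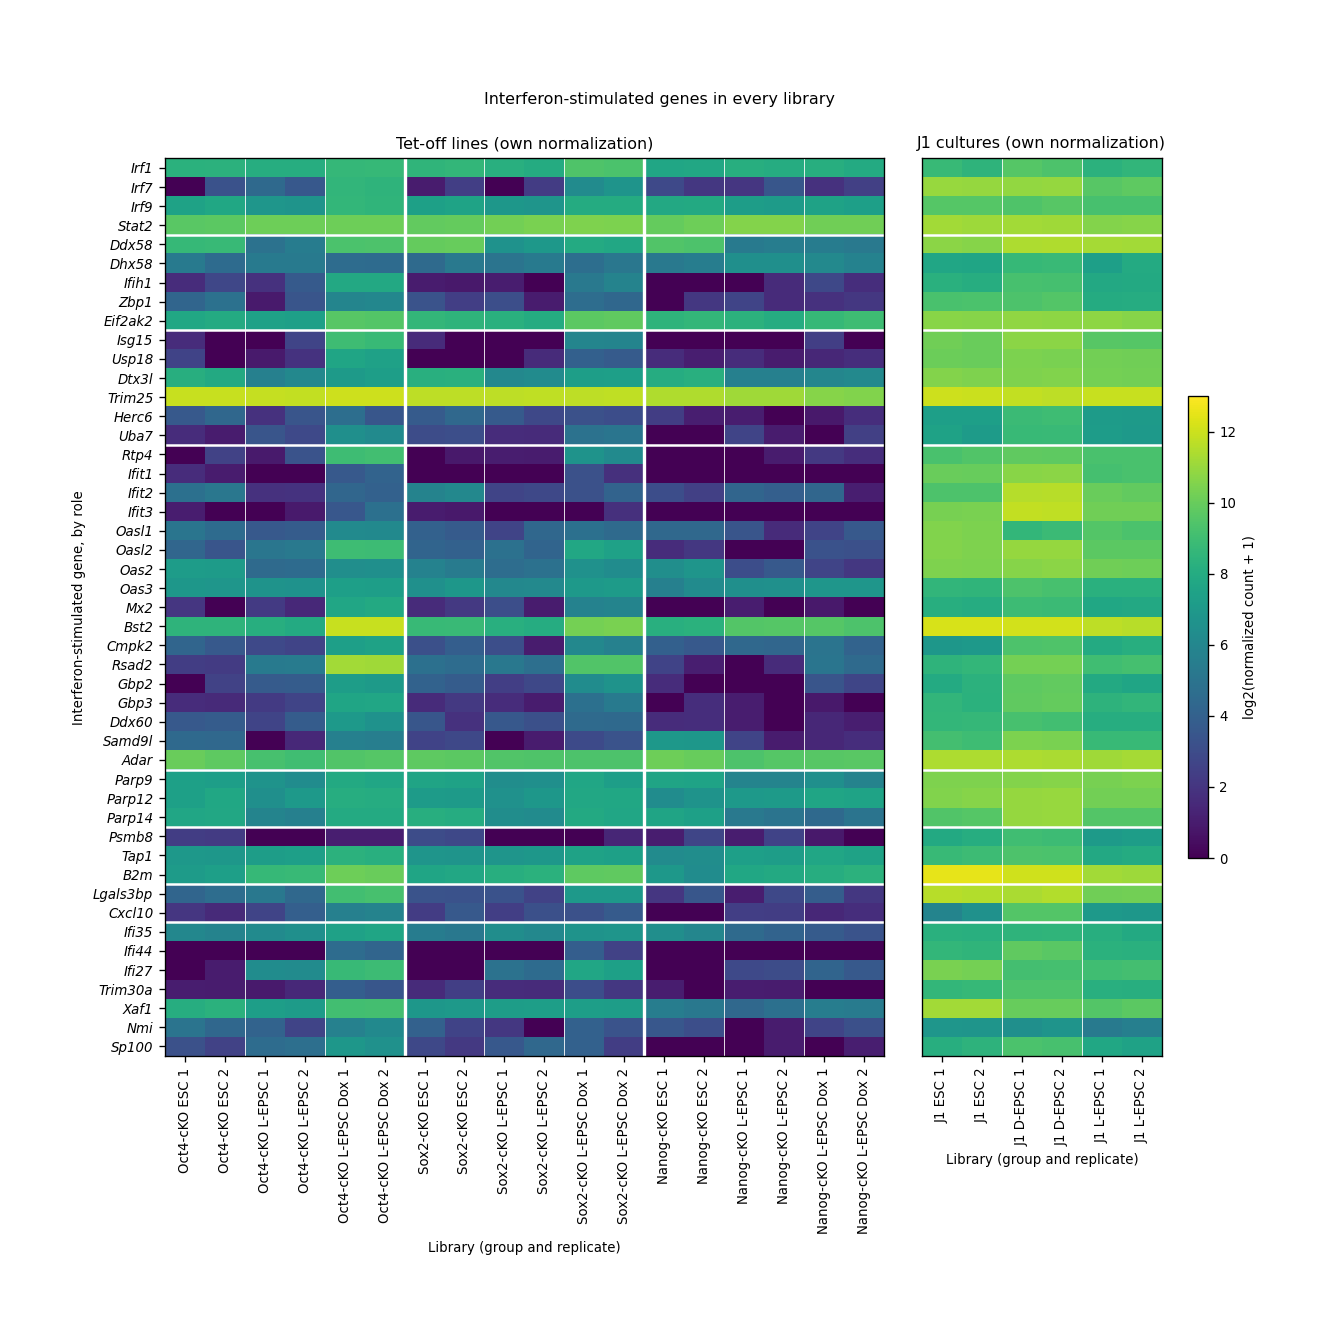
Level of each of the 47 interferon-stimulated genes in each library, as log2(normalized count + 1) on the colour scale, with genes in rows by role, tet-off libraries on the left and J1 libraries on the right, each table on its own normalization. Isg15, Rtp4 and Mx2 are dark in the untreated tet-off and Nanog-cKO libraries and bright in the Oct4-cKO Dox libraries, while all 47 J1 rows lie above 10 normalized counts in every state.

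After Oct4 loss 38 of the 47 members were called higher, at an adjusted p under 0.05 in limma and a log2 fold change beyond 1, and 0 lower, where 8.53% of all 24007 genes tested were called higher and 10.8% lower. After Sox2 loss 30 members were called higher and 0 lower, with 7.79% and 7.32% of all genes called. Nanog reduction left 4 called higher and 0 lower, with 2.80% and 2.59% of all genes. The members' median log2 fold changes were 2.47, 1.44 and 0.18 (2.47, 1.31 and 0.00 with genes that lack reads in one group placed at their lowest fold), against medians of all genes tested at 0. The member counts summed to 7855 and 7746 per library without and 22319 and 22202 with Dox in the Oct4-cKO line, to 7606 and 7756 and then 13002 and 13131 in the Sox2-cKO line, and to 6955 and 7046 and then 6446 and 6258 in the Nanog-cKO line. Their median level with Dox was 201.7, 88.3 and 8.27. The sums weigh the most counted members: in the Nanog-cKO line Trim25 alone went from a mean of 2280 to 1530 with Dox. In that line 25 members had a positive and 19 a negative log2 fold change. Since these contrasts chose the genes, nothing is read from the counts.

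The lines in which a member was called differed. Of the 47, 25 were called in both the Oct4-cKO and Sox2-cKO lines but not with Nanog reduction, 4 in all 3 lines (Oasl2, Rsad2, Gbp2 and Nmi), 9 in the Oct4-cKO line alone (Ifit2, Ifit3, Oasl1, Ifi35, Trim30a, Xaf1, Ddx60, Cxcl10 and Sp100) and Irf1 in the Sox2-cKO line alone. The 8 not called in any were Stat2, Oas3, Dhx58, Trim25, Psmb8, Tap1, Herc6 and Adar. The log2 fold change was larger with Oct4 loss than with Sox2 loss in 37 of the 47, and larger with Sox2 loss than with Nanog reduction in 42. Differences between lines are given below with their SE and were not tested. Values in parentheses after a gene's counts are its log2 fold change ± SE.

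**Figure D2:**
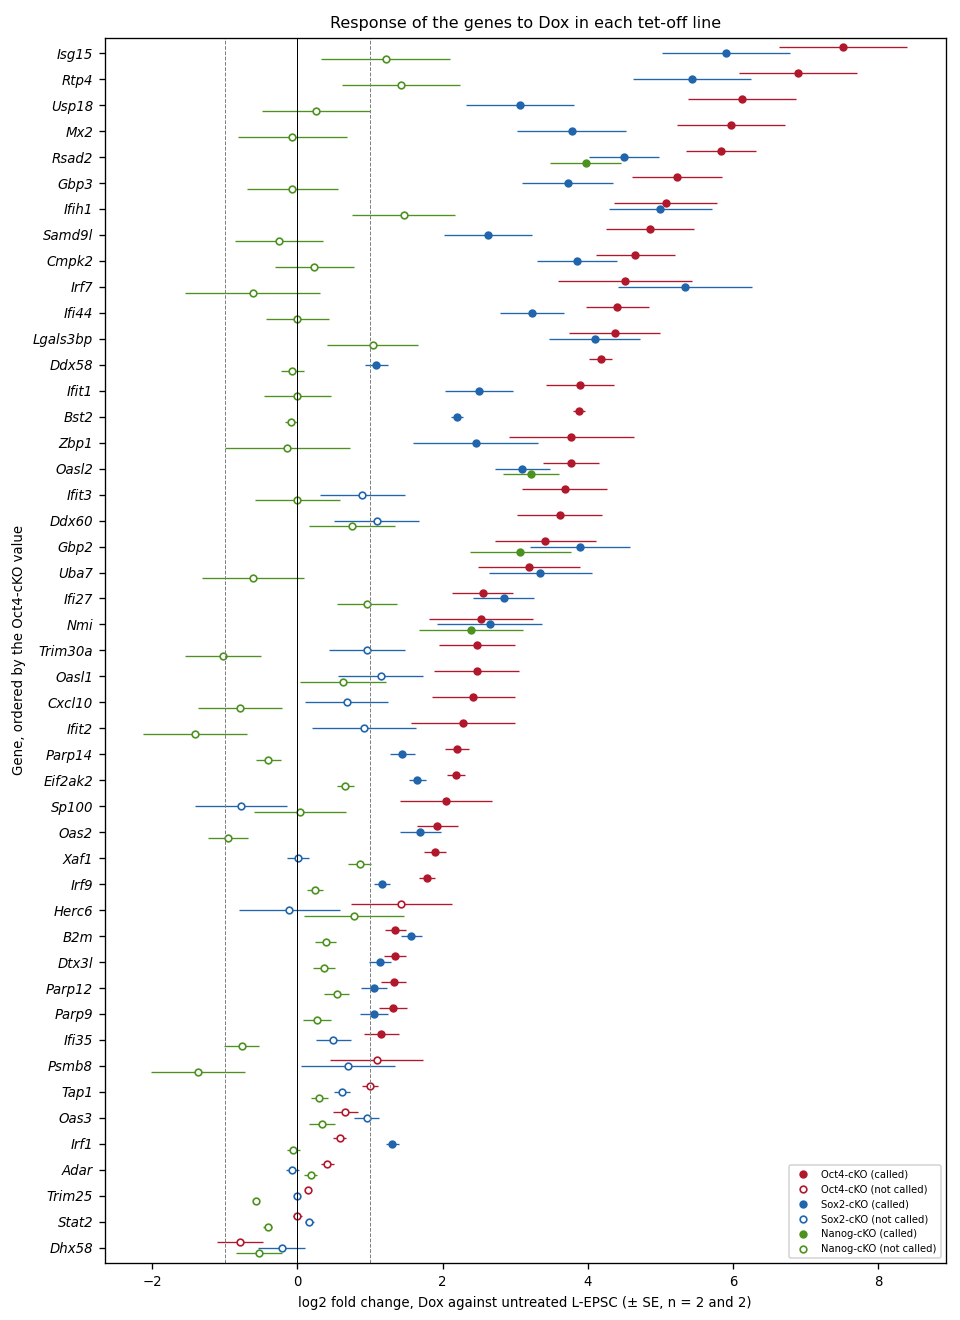
Log2 fold change with Dox in L-EPSCs of the Oct4-cKO, Sox2-cKO and Nanog-cKO lines for each interferon-stimulated gene, as points with SE bars (2 libraries against 2), filled where called, with fitted values also for genes at a few reads, which are no bounds. The Oct4-cKO points lie to the right of the Sox2-cKO points for 37 of 47 genes, and the Nanog-cKO points are not called for 43.

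Of the 4 transcription factors, 2 were called higher with Oct4 loss, 3 with Sox2 loss and 0 with Nanog reduction. Irf9, the DNA-binding subunit of ISGF3, responded in a graded manner. Irf9 was at 113 and 103 in untreated Oct4-cKO L-EPSCs and 388 and 364 with Dox, a log2 fold change of 1.79 ± 0.11 (SE). In the Sox2-cKO line it was at 118 and 109.7 and then 257 and 254 (log2 fold change 1.16 ± 0.11). The groups did not overlap in either line, and the response was larger by 0.63 ± 0.16 after Oct4 loss. Nanog-cKO libraries held 151 and 138 without and 180.1 and 162 with Dox (0.24 ± 0.11). Exons of Irf9 overlap those of Rnf31 on the same strand, and reads there cannot be told apart. Stat2, a subunit of ISGF3, was already high and differed little. Its counts were 1119 and 1123, against 1129.7 and 1114 with Dox in the Oct4-cKO line (log2 fold change 0.00 ± 0.06), 1201 and 1325 without and 1429 and 1401 with Dox in the Sox2-cKO line (0.17 ± 0.06), and 1540.2 and 1565 without and 1173 and 1166 with Dox in the Nanog-cKO line (-0.41 ± 0.06).

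Irf7, the factor that amplifies type I interferon production, rose from low counts to clear expression in the first 2 lines. It was at 20.4 and 10.8 without and 375 and 349.7 with Dox in the Oct4-cKO line (log2 fold change 4.52 ± 0.93). Sox2-cKO libraries gave 0 and 3.99 and then 76.7 and 104 (5.34 ± 0.93). The 2 responses differed by -0.82 ± 1.31, less than its SE, and both groups were separate from their controls. In the Nanog-cKO line Irf7 stayed at 3.20 and 10.2, against 2.64 and 4.50 with Dox. Irf1, which acts downstream of type II interferon in particular, had a higher fold change in the Sox2-cKO line. Its level was 289.5 and 250.4 without and 690.5 and 645 with Dox in the Sox2-cKO line (log2 fold change 1.31 ± 0.09), but 273 and 271 without and 396 and 419.6 with Dox in the Oct4-cKO line (0.58 ± 0.09). Oct4 minus Sox2 was -0.73 ± 0.13. In the Nanog-cKO line the 4 libraries lay between 244 and 284 with no separation of the groups.

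The RNA sensors detect viral RNA in the cytoplasm, and 4 of the 5 were called higher with Oct4 loss and with Sox2 loss. Ddx58 (RIG-I), which recognises short RNA with a 5′ triphosphate, was at 28.4 and 42.2 in untreated Oct4-cKO L-EPSCs and at 628 and 662 with Dox, a log2 fold change of 4.18 ± 0.16. The Sox2-cKO libraries held 96.1 and 123, against 244 and 221 with Dox (1.09 ± 0.16). Its response was larger by 3.09 ± 0.22 after Oct4 loss, among the widest gaps of well-counted members, and the Nanog-cKO libraries ran between 37.1 and 44.9 with the groups overlapping. Ifih1 (MDA5), the sensor of long double-stranded RNA, started from a few reads in both lines. Its counts were 2.66 and 11.7 without and 228 and 229 with Dox in the Oct4-cKO line (5.07 ± 0.71). In the Sox2-cKO line it was at 1.08 and 0 without and 37.1 and 54.8 with Dox, a ratio of 88.7 with a 95% interval of 15.6 to 3533, counting error only, since the untreated libraries held 1 read in all. Nanog-cKO libraries reached at most 6.15 for this gene.

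Eif2ak2 (PKR), the kinase that stops translation on binding double-stranded RNA, was expressed in all libraries. It moved from 175 and 159 to 792 and 735 with Oct4 loss (2.19 ± 0.12) and from 304 and 258 to 852 and 914 with Sox2 loss (1.65 ± 0.12). With Nanog reduction it moved from 321 and 260.0 to 415 and 504 (0.66 ± 0.12), not past the fold threshold although the groups did not overlap. Zbp1, a sensor of Z-form nucleic acid, was low throughout. Its Oct4-cKO counts were 0.887 and 9.88, against 58.7 and 63.3 with Dox, its Sox2-cKO counts 7.56 and 0.998 without and 23.9 and 19.6 with Dox, and its Nanog-cKO counts stayed between 2.04 and 5.33. Dhx58 (LGP2), the regulator of the other sensors in its family, did not follow them. It was at 39.9 and 39.5 without and 23.03 and 22.2 with Dox in the Oct4-cKO line (-0.79 ± 0.32), the lowest fold change of the 47. Sox2-cKO libraries of Dhx58 held 31.3 and 37.9 without and 24.7 and 35.2 with Dox, and Nanog-cKO libraries 88.4 and 87.7, against 68.5 and 54.0 with Dox, all uncalled.

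Of the 6 members of the Isg15 and ubiquitin group, 4 were called higher with Oct4 loss, 4 with Sox2 loss and 0 with Nanog reduction. Isg15 (NCBIM37 chr4:155573533-155574927, minus strand), the ubiquitin-like protein itself, had the largest fitted response. It was at 0 and 5.39 in untreated Oct4-cKO L-EPSCs and at 499 and 429.6 with Dox (log2 fold change 7.52 ± 0.88). In the Sox2-cKO line no read was counted in either untreated library, against 59.4 and 58.1 with Dox, at least 18.8-fold higher when set against 3 reads per library. The Nanog-cKO Dox libraries held 4.39 and 0, which is 5 reads in the first and none in the second, and untreated ones 0 and 0, and no fold is given. Its promoter, printed above, carries 3 overlapping ISRE cores. Usp18, the protease that removes Isg15 and damps receptor signalling, was at 0.887 and 2.69 without and 196 and 172 with Dox in the Oct4-cKO line and at 0 and 2.00 without and 14.8 and 12.3 with Dox in the Sox2-cKO line. Uba7, the activating enzyme for Isg15, went from 9.76 and 6.29 to 87.5 and 73.3 and from 2.16 and 2.00 to 28.9 and 31.9 in the same lines. Dtx3l, the ubiquitin ligase partner of Parp9, was at 48.8 and 65.6, against 134 and 158 with Dox in the Oct4-cKO line (1.34 ± 0.15) and at 67.0 and 76.8 without and 157 and 160.3 with Dox in the Sox2-cKO line (1.13 ± 0.15). The groups of Dtx3l were separate in both. Trim25, which ubiquitinates Ddx58, was the most counted member in every tet-off group. It differed little in the Oct4-cKO line, at 3715 and 3637 without and 4067 and 4059 with Dox. Its log2 fold change was -0.0006 with Sox2 loss and -0.58 with Nanog reduction, both uncalled. Herc6, a ligase for Isg15 in the mouse, stayed between 2.66 and 25.3 in the Oct4-cKO L-EPSC libraries.

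Antiviral effectors formed the largest role, with 17 members, of which 15, 11 and 3 were called higher in the Oct4-cKO, Sox2-cKO and Nanog-cKO lines. Bst2 (tetherin, chr8:74058163-74061336, minus strand), which holds budding virus particles at the cell surface, was the best counted of them with Dox in the Oct4-cKO line. Bst2 was at 279.5 and 243 in untreated Oct4-cKO L-EPSCs and 3874 and 3808 with Dox (3.88 ± 0.08). Counts in the Sox2-cKO line were 296 and 259, against 1237 and 1321 with Dox (2.20 ± 0.08), and in the Nanog-cKO line 738 and 757 without and 754 and 658 with Dox (-0.09 ± 0.08). The Oct4 response exceeded the Sox2 response by 1.67 ± 0.11, while the Nanog-cKO groups differed by about their SE. Per kilobase of exon, Bst2 with Dox in the Oct4-cKO line was the highest of all members at 5028 normalized counts, above B2m at 1258 and Trim25 at 706, whereas Trim25 led the untreated L-EPSCs of that line at 639.

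Rsad2 (viperin, chr12:27127618-27141317, minus strand), which makes a chain-terminating nucleotide, responded in all 3 lines. It went from 38.2 and 41.3 to 2350.4 and 2298 with Oct4 loss (5.84 ± 0.49) and from 35.6 and 25.9 to 709 and 713 with Sox2 loss (4.50 ± 0.49). In the Nanog-cKO line it went from 0 and 2.04 to 32.5 and 21.4, a ratio of 26.5 with a 95% interval of 7.00 to 224. The groups were separate in every line, while the level reached differed widely between lines. Cmpk2, which neighbours Rsad2 at a distance of 12751 bases on chromosome 12 and supplies nucleotides in mitochondria, was at 6.21 and 5.39 without and 161 and 179.8 with Dox in the Oct4-cKO line and 7.56 and 0.998, against 66.0 and 52.3 with Dox in the Sox2-cKO line. Unlike Rsad2 it was not called with Nanog reduction, at 20.2 and 18.4 without and 30.7 and 16.9 with Dox.

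Rtp4, a chaperone that inhibits flavivirus replication, showed the second largest fitted response to Oct4 loss. Rtp4 was at 0.887 and 8.98 without and 501 and 528 with Dox (6.89 ± 0.81). Sox2-cKO libraries held 1.08 and 0.998 without and 102 and 74.4 with Dox, a ratio of 85.1 with a 95% interval of 23.3 to 707. The Nanog-cKO Dox libraries held 3.51 and 2.25, near the floor. Mx2, a dynamin-like GTPase that restricts viruses, was at 3.55 and 1.80, against 209.6 and 238 with Dox in the Oct4-cKO line (5.97 ± 0.75) and 7.56 and 0.998 without and 53.6 and 58.1 with Dox in the Sox2-cKO line (3.78 ± 0.75). In the 4 Nanog-cKO L-EPSC libraries Mx2 did not exceed 1.07.

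Of the oligoadenylate synthetase family, Oasl2 was called in all 3 lines and Oas3 in none. Oasl2, a synthetase-like protein, went from 33.7 and 36.8 to 497 and 488 with Oct4 loss (3.77 ± 0.38) and from 28.1 and 17.0 to 219 and 174 with Sox2 loss (3.10 ± 0.38). With Nanog reduction it was at 0 and 0 and then 8.78 and 7.87, at least 2.66-fold higher against 3 reads per library. Its neighbour Oasl1, a repressor of Irf7 translation that lies 11005 bases away, was called in the Oct4-cKO line alone, going from 11.5 and 12.6 to 72.6 and 69.9. Oas2 was at 21.3 and 22.5 without and 85.2 and 86.6 with Dox in the Oct4-cKO line and 23.8 and 27.9, against 93.2 and 78.5 with Dox in the Sox2-cKO line, while Oas3 was uncalled at 101 and 97.0 without and 160.1 and 154 with Dox and at 67.0 and 68.8 without and 127 and 138 with Dox. Members of this family, of the Ifit and Gbp families, Trim30a, Mx2 and Ifi27 have close copies in the genome, and how reads between copies were counted makes their levels uncertain.

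The Ifit genes, whose products bind foreign RNA ends, lie together on chromosome 19 and stayed near the floor. With Oct4 loss Ifit1 reached 11.5 and 16.7 from 0 and 0, at least 5.26-fold higher, Ifit2 reached 18.4 and 15.5 from 2.66 and 2.69, and Ifit3 reached 10.4 and 26.6 from 0 and 0.898. In the Sox2-cKO line only Ifit1 was called, at 8.25 and 2.45 from 0 and 0. The guanylate-binding proteins, GTPases that attack pathogen membranes, were higher counted. Gbp3 was at 3.55 and 5.39, against 198 and 205 with Dox in the Oct4-cKO line (5.23 ± 0.62) and 2.16 and 0.998 without and 26.4 and 39.2 with Dox in the Sox2-cKO line, a ratio of 21.1 with a 95% interval of 6.97 to 105. Gbp2, 47392 bases away, went from 12.4 and 12.6 to 149.7 and 137, from 4.32 and 5.99 to 79.2 and 101 and, in the Nanog-cKO line, from 0 and 0 to 9.66 and 5.62, at least 2.44-fold higher.

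Of the remaining effectors, Ddx60, a helicase that assists Ddx58, reached 129 and 97.7 in the Oct4-cKO line and 21.4 and 20.4 in the Sox2-cKO line. Samd9l, a translational repressor, reached 49.5 and 45.5 in the first and 6.60 and 8.99 in the second. Adar, which edits adenosine in double-stranded RNA, was well expressed and uncalled, at 587 and 517 without and 697 and 771 with Dox in the Oct4-cKO line.

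The ADP-ribosyltransferases Parp9, Parp12 and Parp14, which modify proteins during the antiviral response, were expressed before Dox and called higher in the same 2 lines. Parp14 was at 56.8 and 50.3, against 249 and 249.8 with Dox in the Oct4-cKO line (2.20 ± 0.17), at 83.2 and 76.8 without and 233 and 206 with Dox in the Sox2-cKO line (1.44 ± 0.17), and at 37.3 and 31.6 without and 21.1 and 31.5 with Dox in the Nanog-cKO line. Parp9 was at 102 and 78.2, against 241 and 209 with Dox (1.32 ± 0.19) in the Oct4-cKO line and at 83.2 and 87.8 without and 203 and 157 with Dox (1.05 ± 0.19) in the Sox2-cKO line. Parp12 was at 87.8 and 128 without and 269 and 266 with Dox (1.33 ± 0.18) in the Oct4-cKO line and at 92.9 and 116 without and 221 and 212 with Dox (1.05 ± 0.18) in the Sox2-cKO line. In the latter line Parp9 without the first Dox library (0.87), and Parp12 (0.90) and Ddx58 (0.91) without the first untreated library, fell under the threshold of 1. No group of the 3 genes overlapped its control in these 2 lines. Parp9 and Dtx3l share 367 exonic bases on opposite strands of chromosome 16, and as no source states the strand setting of the counting, reads there cannot be told apart.

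Of the 3 antigen presentation genes, B2m, the constant chain of MHC class I, was called. B2m went from 416 and 431 to 1102 and 1061 with Oct4 loss (1.35 ± 0.14) and from 282 and 316 to 874 and 902 with Sox2 loss (1.57 ± 0.14). The 2 responses differed by -0.22 ± 0.20, about its SE, and with Nanog reduction B2m was at 214 and 234 without and 269.7 and 322 with Dox (0.39 ± 0.14). Tap1, the peptide transporter, was at 148 and 163 without and 328 and 296 with Dox in the Oct4-cKO line (1.00 ± 0.11), just under the threshold of 1 and so just outside the called members. Dtx3l and Ddx58 were just inside it in the Sox2-cKO line, along with Parp9 and Parp12 given above. Psmb8, a subunit of the immunoproteasome, held at most 1.15 in the Oct4-cKO L-EPSC libraries and gives no fold.

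Lgals3bp, a secreted glycoprotein, was at 35.5 and 19.8, against 537 and 601 with Dox in the Oct4-cKO line (4.37 ± 0.63) and at 8.64 and 4.99 without and 128 and 130.0 with Dox in the Sox2-cKO line (4.10 ± 0.63). Both responses left the groups well apart. Cxcl10, a chemokine that draws T cells, was lower, at 5.32 and 14.4 without and 49.5 and 54.4 with Dox in the Oct4-cKO line and 4.32 and 7.98, against 8.25 and 12.3 with Dox in the Sox2-cKO line.

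Among members of other roles, Ifi27, a mitochondrial protein, went from 78.1 and 75.5 to 425 and 486 with Oct4 loss (2.55 ± 0.42) and from 29.2 and 21.9 to 209 and 169 with Sox2 loss (2.84 ± 0.42). Xaf1, a pro-apoptotic protein, was at 154 and 142 without and 541 and 562 with Dox in the Oct4-cKO line (1.89 ± 0.15) but at 148 and 154 without and 154 and 150.4 with Dox in the Sox2-cKO line (0.01 ± 0.15). The gap between these responses was 1.88 ± 0.22, and the Sox2-cKO groups overlapped. Ifi35 was at 74.5 and 88.9, against 170.4 and 195 with Dox in the Oct4-cKO line (1.15 ± 0.24), at 82.1 and 65.8 without and 99.8 and 109 with Dox in the Sox2-cKO line and at 21.3 and 16.3 without and 12.3 and 8.99 with Dox in the Nanog-cKO line. Ifi44 had no read in any untreated tet-off library and reached 23.03 and 17.8 with Oct4 loss and 14.0 and 4.91 with Sox2 loss, at least 7.61-fold and 3.04-fold higher. Nmi, which binds Stat proteins, reached 51.8 and 71.0 in the Oct4-cKO line, 15.7 and 8.99 in the Sox2-cKO line and 5.27 and 7.87 in the Nanog-cKO line. With Oct4 loss Trim30a reached 13.8 and 9.99, and Sp100, a nuclear body protein, 115 and 94.4.

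The rest of the pathway was read from lists of ligands, receptors, sensors, regulators and further targets. Calls in each list stand beside 8.53% of all genes called higher and 10.8% lower with Oct4 loss, 7.79% and 7.32% with Sox2 loss and 2.80% and 2.59% with Nanog reduction, and nothing particular to a list is read from them. Of 22 interferon genes listed, 3 were tested in the tet-off table, and Ifnb1 was not among its genes. Ifnk, named after its values were seen, was the one called higher, at 0.887 and 0 without and 16.1 and 13.3 with Dox in the Oct4-cKO line. The type I receptor chains were present before Dox. Since the lists were chosen with earlier results of these data known, no p-value is given for these chains with Dox. Ifnar2 was at 207 and 176, against 698 and 699 with Dox in the Oct4-cKO line (log2 fold change 1.87 ± 0.13). Its log2 fold change was 0.86 ± 0.13 with Sox2 loss (not called for its size) and -0.15 ± 0.13 with Nanog reduction. Ifnar1 was uncalled in the 3 lines, at log2 fold changes of 0.57 ± 0.09, 0.46 ± 0.09 and -0.41 ± 0.09.

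Ifngr2, a chain of the type II receptor, was higher with Oct4 loss by 1.83 ± 0.17 and with Sox2 loss by 1.52 ± 0.17. Ifngr2 and the pathway genes with Dox fold changes below were picked by that value after Oct4 loss, so no p-value is given.

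By list, 3 of 9 receptors and kinases and 5 of 13 sensors and adaptors were called higher with Oct4 loss, with 1 of the sensors and adaptors, Cgas, called lower (named after its values were seen). Ticam1 and Myd88, adaptors of Toll-like receptors, had the largest folds of that list among the well-counted ones, at 2.16 ± 0.20 and 1.97 ± 0.16. Of 6 negative regulators tested, Socs3 was called lower, at -1.01 ± 0.05. The counts higher with Sox2 loss were 2 of 9, 3 of 13 and 0 of 6 for receptors and kinases, sensors and adaptors, and negative regulators, and with Nanog reduction 0 in each. Of the 13 sensors and adaptors, 1 was called lower in each of these lines.

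A further 53 interferon-stimulated genes outside the 47 were tested. Of these, 27 were called higher and 6 lower with Oct4 loss, 21 higher and 9 lower with Sox2 loss, and 3 higher and 5 lower with Nanog reduction (all genes 8.53% and 10.8%, 7.79% and 7.32%, and 2.80% and 2.59%). Gbp7, a guanylate-binding protein, had a log2 fold change of 4.50 ± 0.53 and Irgm2, an immunity-related GTPase, 4.28 ± 0.28 with Oct4 loss. Ifitm1, a membrane protein that blocks viral entry, went the other way. It was at 187 and 239 without and 9.21 and 3.33 with Dox in the Oct4-cKO line (-5.00 ± 0.26). Ifitm1 was also lower with Sox2 loss (-4.96 ± 0.26) and Nanog reduction (-2.02 ± 0.26).

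Markers of other cells moved with Dox as well. Of 10 macrophage markers, 0 to 4 had no read in the tet-off groups, the summed mean ran from 252 to 774, and most of it was Cd68. In the Oct4-cKO Dox libraries the sum was 632 and 616, against 454 and 479 without Dox, with Ptprc at 2.30 and 0, Adgre1 at 0 and 1.11 and Lyz2 at 2.30 and 5.55. Of the 10, 3 were called higher with Oct4 loss (Csf1r, Lyz2 and Spi1) and 2 with Sox2 loss (Csf1r and Spi1). Spi1, the myeloid transcription factor, was at 31.9 and 19.8 without and 104 and 102 with Dox in the Oct4-cKO line, and Csf1r at 0.887 and 14.4 without and 69.1 and 64.4 with Dox. With Nanog reduction 2 were called higher and 1 lower. Fibroblast markers summed to 508 and 521 with and 574 and 525 without Dox in the Oct4-cKO line, where 3 of 8 tested were called higher and 2 lower. Pdgfra was at 83.4 and 72.8 without and 203 and 229.8 with Dox, and Pdgfrb at 358 and 322 without and 132 and 108 with Dox. In the Sox2-cKO line 1 was called higher and 1 lower, and in the Nanog-cKO line 0 and 1. The part of these cells in the Dox values was not tested.

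**Figure D3:**
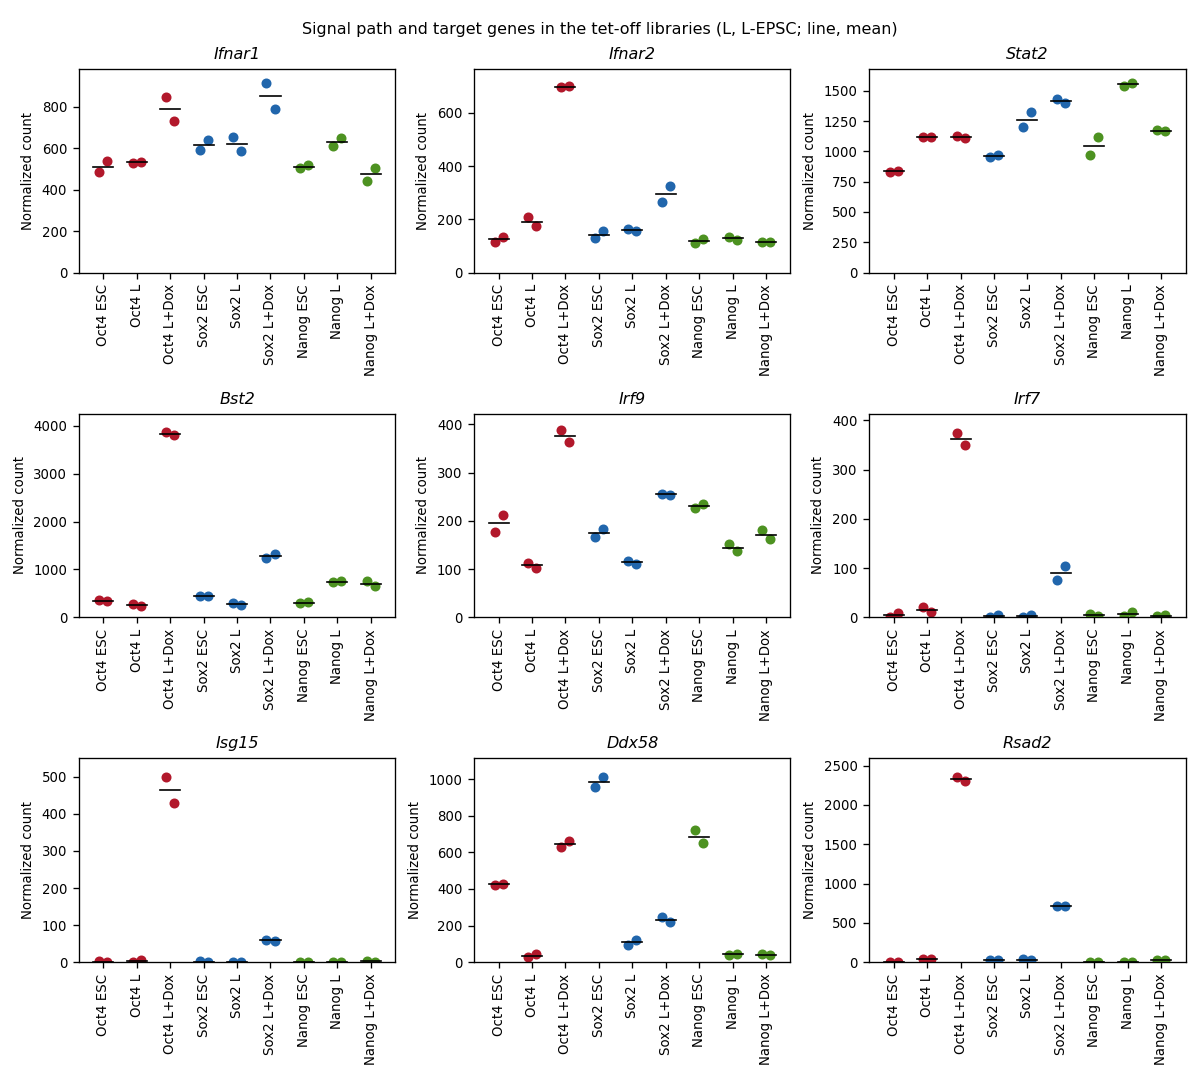
Normalized counts of Ifnar1, Ifnar2, Stat2, Bst2, Irf9, Irf7, Isg15, Ddx58 and Rsad2 in each tet-off library, by line and state, with 1 point per library and a line at the mean of 2. Bst2 stands at 3874 and 3808 in the Oct4-cKO Dox libraries, and next highest at 1237 and 1321 in the Sox2-cKO Dox libraries.

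The conversion of ESCs to L-EPSCs was compared in the same 3 lines without Dox, at a log2 fold change beyond 0.6. As it shares the untreated L-EPSC libraries with the comparisons that chose the members, nothing is read from its counts of calls. In the Oct4-cKO line 8 members were called higher and 14 lower (13.0% and 15.4% of all genes tested), in the Sox2-cKO line 2 and 12 (7.99% and 11.6%), and in the Nanog-cKO line 7 and 13 (12.2% and 14.7%). Median log2 fold changes of the members were -0.06, -0.40 and 0.00, where the median over all genes was 0. The 32, 26 and 23 members with a mean of at least 10 over both groups had medians of -0.64, -0.38 and -0.36. In the Oct4-cKO line the higher calls were 5 without the second L-EPSC library or without either ESC library. With the 2 groups fitted alone they were 3. The median of all members in that line was -0.36 without the second L-EPSC library. In no line were 18 of the members called.

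The members called lower in all 3 lines were Irf9, Oas2, Ddx58, Parp9, Parp14, Dtx3l and Samd9l. Ddx58, well counted in the ESCs of each line, was one of the largest falls. It was at 423 and 426 in Oct4-cKO ESCs against 28.4 and 42.2 in L-EPSCs (-3.58 ± 0.16). Sox2-cKO ESCs held 958 and 1012 (-3.17 ± 0.16) and Nanog-cKO ESCs 720.4 and 650.2 (-3.99 ± 0.16). No ESC library overlapped an L-EPSC library of its line, and with Dox the Oct4-cKO L-EPSCs were above the ESCs of their line, while those of the other lines stayed below theirs. The neighbours Parp14, Dtx3l and Parp9 on chromosome 16 fell together. Dtx3l fell by 2.17 ± 0.15, 2.03 ± 0.15 and 2.47 ± 0.15 in the Oct4-cKO, Sox2-cKO and Nanog-cKO lines. Parp14 fell by 1.97 ± 0.17, 1.76 ± 0.17 and 2.34 ± 0.17, and Parp9 by 0.84 ± 0.19, 1.10 ± 0.19 and 1.69 ± 0.19.

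Irf9, from 178 and 213 in Oct4-cKO ESCs, fell by 0.84 ± 0.11, 0.62 ± 0.11 and 0.67 ± 0.11 in the 3 lines, and in the Sox2-cKO line by 0.57 without the second L-EPSC or 0.56 without the second ESC library, under the threshold. Ifi27 alone was called higher in every line. It had 0 and 0.967 in Oct4-cKO ESCs against 78.1 and 75.5 in L-EPSCs, a ratio of 153 with a 95% interval of 27.1 to 6071, and no read in the ESCs of the other 2 lines, against 29.2 and 21.9 in Sox2-cKO L-EPSCs and 6.39 and 7.14 in Nanog-cKO L-EPSCs, at least 9.08-fold and 2.08-fold higher. Other members were called in 1 or 2 lines. B2m was higher in L-EPSCs by 1.48 ± 0.14 in the Oct4-cKO line and 1.20 ± 0.14 in the Nanog-cKO line, with 141 and 161 in the ESCs of the first and 119 and 78.5 in those of the second. Tap1 was higher by 0.97 ± 0.11 in the Nanog-cKO line. Bst2 was lower by 0.67 ± 0.08 in the Sox2-cKO line and higher by 1.30 ± 0.08 in the Nanog-cKO line, and the first of these calls was lost without the second Sox2-cKO L-EPSC library (-0.58). In the Oct4-cKO line Xaf1 fell by 0.98 ± 0.15 and Parp12 by 0.81 ± 0.18, Parp12 by 0.54 without the first L-EPSC library, which ended its call. Isg15, Irf7, Rtp4, Ifih1, Mx2 and Gbp3, all strong responders to Oct4 loss, were among the 18 uncalled, mostly at a few reads in either state.

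**Figure D4:**
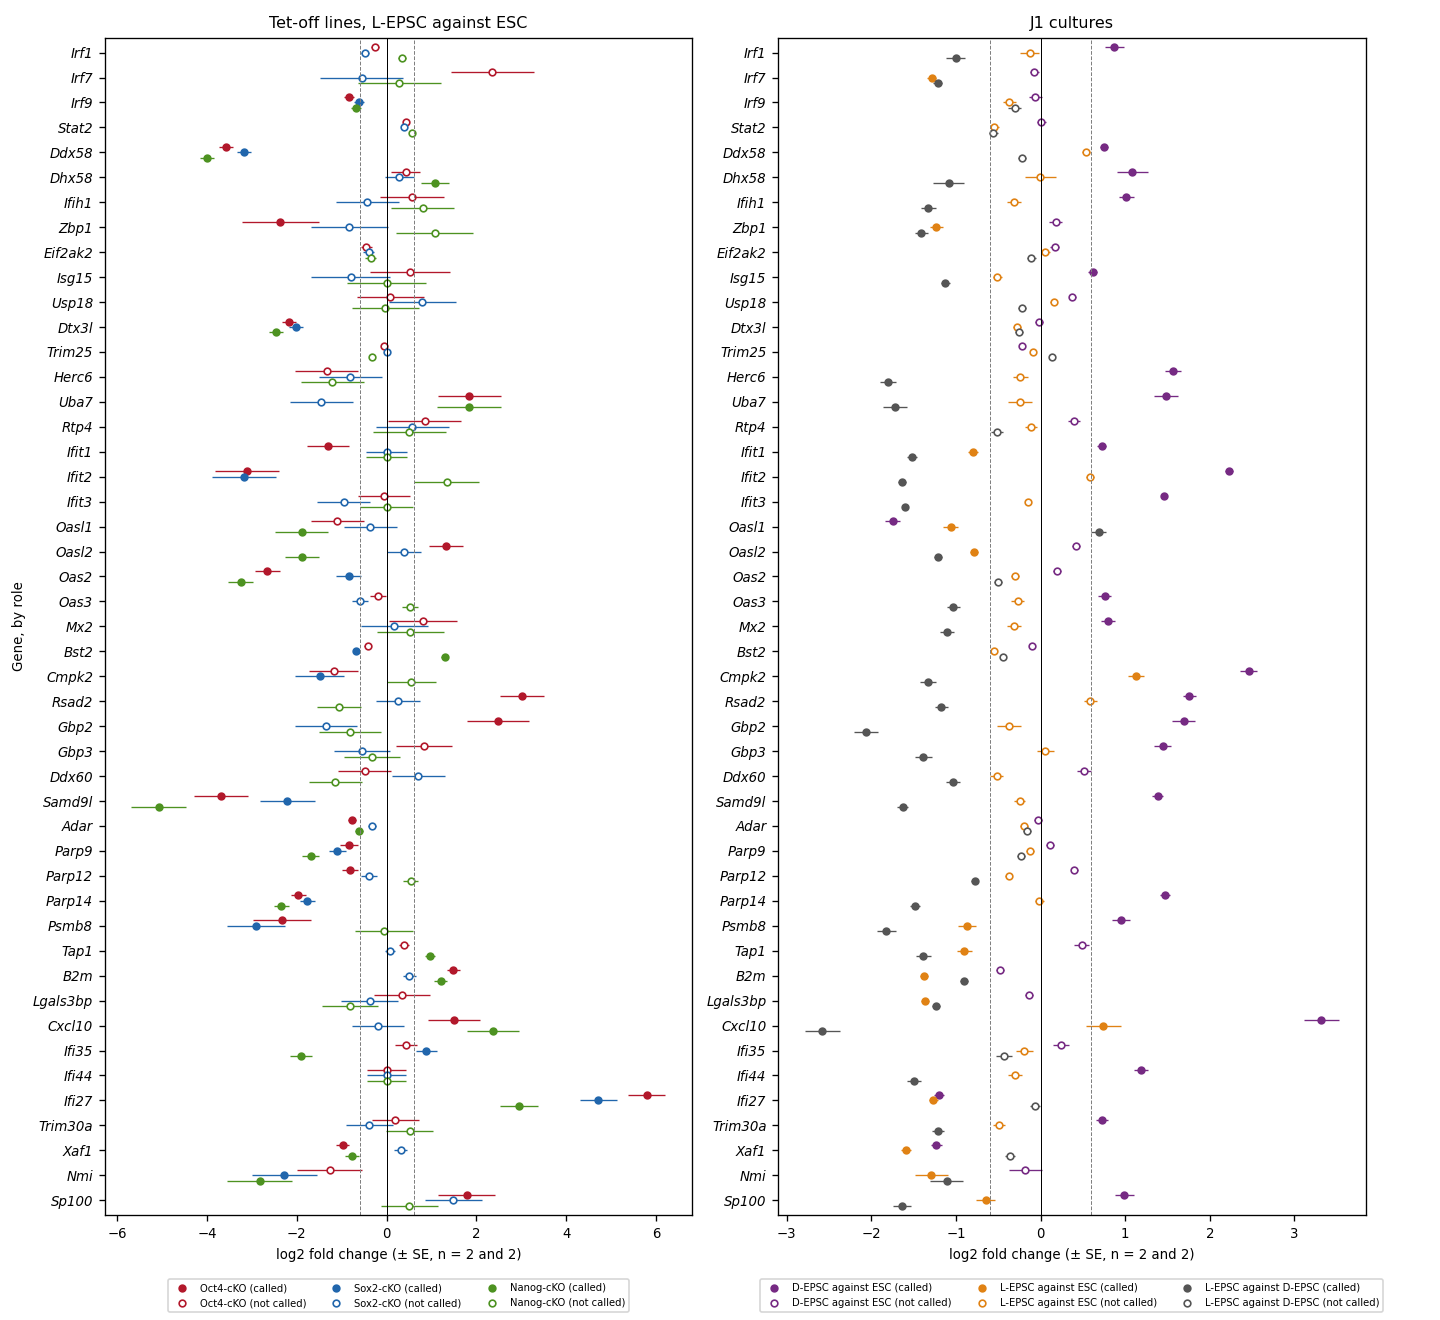
Log2 fold change of each interferon-stimulated gene on conversion of tet-off ESCs to L-EPSCs in 3 lines (left) and between J1 culture states (right), as points with SE bars (2 libraries against 2), filled where called. Ddx58, Dtx3l and Parp14 lie left of 0 in all 3 tet-off lines, and most J1 genes lie right of 0 for D-EPSCs against ESCs and left of 0 for L-EPSCs against D-EPSCs.

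The J1 cultures held the same genes at higher counts. All 47 members had a mean of at least 10 normalized counts in every J1 state and in each state 46 (not the same genes) had a mean of at least 100, whereas 18 to 27 of them were under 10 in the untreated tet-off groups. The median over members was 670.5 in J1 ESCs, 935.6 in D-EPSCs and 589.0 in L-EPSCs, against 5.81 to 21.9 in the untreated tet-off groups, though the tables were normalized separately. J1 cultures also differed from the tet-off cultures in markers of other cells. Macrophage markers, all 10 with reads, summed to 2699 and 2695 in J1 ESCs, 20450.2 and 20546 in D-EPSCs and 16173 and 16266 in L-EPSCs, including Lyz2 at 1085 and 1068 in ESCs, 15553 and 15802 in D-EPSCs and 13018 and 12965 in L-EPSCs. Adgre1 was at 152 and 117 in ESCs, 1299.9 and 1259 in D-EPSCs and 752 and 846 in L-EPSCs. Fibroblast markers, all 10 with reads, summed to 90375 and 92570.2 in ESCs, 57026 and 57316 in D-EPSCs and 19016 and 19618 in L-EPSCs. No marker of either list was at 0. The part of these cells in the J1 values of interferon-stimulated genes was not tested.

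The members were highest on average in D-EPSCs. D-EPSCs held the highest mean for 35 members, ESCs for 12 and L-EPSCs for 0, and L-EPSCs the lowest for 36. Against ESCs, 23 members were called higher in D-EPSCs and 3 lower, where 10.8% and 9.98% of 21533 genes tested were called, with a median log2 fold change of 0.51. L-EPSCs against ESCs had 2 higher and 13 lower (8.80% and 11.5% of all genes; median -0.31), and L-EPSCs against D-EPSCs 1 higher and 31 lower (4.80% and 8.58%; median -1.11). The first 2 of these comparisons share the ESC libraries and the last shares both EPSC groups. Over all genes tested the medians were 0.01, 0.00 and 0.00.

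The largest increase in D-EPSCs was that of Cxcl10. Cxcl10 was at 56.6 and 93.1 in ESCs, 736 and 731 in D-EPSCs and 125 and 118 in L-EPSCs. The change was 3.32 ± 0.21 on the log2 scale for D-EPSCs against ESCs and -2.58 ± 0.21 for L-EPSCs against D-EPSCs (limma adjusted p = 9.8e-06 and 7.1e-05). Cmpk2 was at 118 and 125 in ESCs, 668 and 676 in D-EPSCs and 248 and 286 in L-EPSCs, higher in both EPSC states (2.46 ± 0.10 and 1.13 ± 0.10, adjusted p = 8.6e-07 and 5.7e-05). Its neighbour Rsad2 was at 345 and 386 in ESCs, 1230.5 and 1246 in D-EPSCs and 520.2 and 578 in L-EPSCs (D-EPSC against ESC 1.76 ± 0.08, adjusted p = 1.5e-06). In each of these the D-EPSC libraries were the highest of the 6. Ifit2, near the floor in the tet-off lines, was at 653 and 670.5 in ESCs, 3047 and 3143 in D-EPSCs and 1027 and 955 in L-EPSCs (2.22 ± 0.05, adjusted p = 5.5e-08).

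Gbp2, Herc6 and Uba7 completed the largest increases in D-EPSCs, at log2 fold changes of 1.69 ± 0.14, 1.57 ± 0.09 and 1.48 ± 0.14 (adjusted p = 4.4e-05, 7.6e-06 and 0.00010). The same 3 genes were among the largest falls from D-EPSCs to L-EPSCs, by 2.06 ± 0.14, 1.80 ± 0.09 and 1.72 ± 0.14 (adjusted p = 3.0e-05, 8.0e-06 and 8.1e-05), in libraries that the 2 comparisons share. Psmb8 was at 523 and 479 in D-EPSCs and 134 and 148 in L-EPSCs (-1.82 ± 0.11, adjusted p = 1.6e-05), followed by Ifit2, Sp100 and Samd9l at -1.64 ± 0.05, -1.64 ± 0.11 and -1.63 ± 0.07 (adjusted p = 5.9e-07, 2.8e-05 and 2.0e-06). Oasl1 was 1 of the 2 members with their lowest mean in D-EPSCs. It was at 1467 and 1403 in ESCs, 393 and 462 in D-EPSCs and 727 and 647 in L-EPSCs, lower in both EPSC states (-1.75 ± 0.09 and -1.06 ± 0.09, adjusted p = 3.3e-06 and 4.8e-05), and the one member that L-EPSCs had at a called higher level than D-EPSCs, a call lost without the first D-EPSC library (0.57) or the first L-EPSC library (0.60). Xaf1 and Ifi27 were the other members called lower in D-EPSCs.

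The largest differences of L-EPSCs from ESCs were mostly falls. Irf7 was at 2021 and 1987 in ESCs, 1877 and 1934 in D-EPSCs and 778 and 864 in L-EPSCs (L-EPSC against ESC -1.29 ± 0.05, adjusted p = 1.2e-06). Lgals3bp was at 3087 and 2948 in ESCs, 2636 and 2863 in D-EPSCs and 1141 and 1195 in L-EPSCs (-1.37 ± 0.05, adjusted p = 6.0e-07), and Zbp1 at 606 and 633 in ESCs, 658 and 744 in D-EPSCs and 258 and 268 in L-EPSCs (-1.23 ± 0.08, adjusted p = 1.0e-05). For these 3 every L-EPSC library lay below every ESC and D-EPSC library. B2m was at 5944 and 5832 in ESCs, 4261 and 4204 in D-EPSCs and 2385 and 2150.2 in L-EPSCs (-1.38 ± 0.05, adjusted p = 4.4e-07). Xaf1 was at 2368 and 2356 in ESCs, 1005 and 1006 in D-EPSCs and 735 and 836 in L-EPSCs, with -1.59 ± 0.06 for L-EPSCs (adjusted p = 7.8e-07). Ifi27, higher on conversion in each tet-off line, was lower in J1 L-EPSCs than in J1 ESCs by 1.27 ± 0.06 (adjusted p = 1.9e-06), at 1329 and 1265 in ESCs, 558 and 569 in D-EPSCs and 520.2 and 557 in L-EPSCs.

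The wider pathway was read in J1 cultures from the same lists. Of 54 further interferon-stimulated genes tested, D-EPSCs against ESCs gave 21 calls upward and 3 downward, L-EPSCs against ESCs 5 and 20, and L-EPSCs against D-EPSCs 0 and 38 (all genes 10.8% and 9.98%, 8.80% and 11.5%, and 4.80% and 8.58%). Ifnar2 fell from D-EPSCs to L-EPSCs (-0.80 ± 0.10, adjusted p = 0.00062), and Ifnar1 was called in none of the 3 comparisons, at -0.06 ± 0.07, -0.26 ± 0.07 and -0.19 ± 0.07. Ifnb1 itself was at 4.49 and 0.922 in ESCs, 2.04 and 1.96 in D-EPSCs and 0 and 0 in L-EPSCs, a few reads per library at most.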

How the data were processed

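PolyA RNA of 24 libraries in 12 groups of 2 was sequenced. According to the submitters' processing notes, reads were trimmed with Trim Galore 0.6.4, aligned with STAR 2.7.9a to mouse mm9 (NCBIM37) and counted per gene with HTSeq 0.11.2, and the authors divided the counts by DESeq2 size factors (version given as 4.1.1). The deposited tables hold these normalized counts, which were treated as a signal and not as counts. Whole reads could be recovered from the deposited values (100% within 0.1 of a whole number), giving 11612919 to 15069899 reads on genes in J1 and 10807631 to 14798984 in tet-off libraries. Depth limits genes at a few reads, and floors (3 reads) and 95% intervals cover counting error only. The strand setting of the counting was not given in the sources used here.

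Values were tested as log2(value + 1) with limma 3.58.1 (trend) in R 4.3.3, all groups of a table in 1 fit, for genes with at least 2 reads in total, with Benjamini-Hochberg adjustment over all genes of each comparison. Calls needed an adjusted p under 0.05 together with a log2 fold change larger than 1 (Dox) or 0.6 (other comparisons). Fold changes on this scale understate those of low genes. For members in the Dox and tet-off conversion comparisons the call is a description. The steps were tested on simulated data, with calls at a log2 fold change beyond 0.6 in both cases. Of 100 genes changed 2-fold and 100 changed 4-fold, 74% and 82% were recovered for J1 L-EPSCs against ESCs. For Oct4-cKO Dox the shares were 83% and 96%. Unchanged genes called were 0 in the first case and 17 in the second. The changed genes were drawn from those with a mean of at least 10, and all genes were given 1 common variation. Recovery of genes at lower counts and at the Dox threshold of 1 was not simulated.

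The members and the gene lists were chosen with earlier results of these data known. Values in every library were given for members with a mean of at least 100 and a log2 fold change beyond 1 in a Dox comparison and for all transcription factors and sensors, with shorter accounts of the others. In the other comparisons, called members with a mean of at least 100 were named, at most 8 by size of fold change. Pathway genes named were Ifnar1, Ifnar2, Ifnb1 and at most 3 more per list, and the list of other transcription factors is not reported here. Alternatives were edgeR 4.0.16 and DESeq2 1.42.0 on recovered reads, another pseudocount (0.1), a minimum mean of 10, other thresholds, fits of the 2 groups alone, a replicate block and leaving out each library.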

Additional observations from a re-analysis of the deposited data

Results flagged for a closer look

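For 3 members the change from ESC to L-EPSC ran in opposite directions in 2 tet-off lines, and the difference between the lines was fitted as an interaction in limma. Oasl2 had a log2 fold change of 1.32 in the Oct4-cKO line and -1.88 in the Nanog-cKO line, a difference of 3.19 ± 0.54 (SE). Bst2 was lower by 0.67 in the Sox2-cKO line and higher by 1.30 in the Nanog-cKO line, a difference of -1.97 ± 0.11. Ifi35 had 0.89 in the Sox2-cKO line and -1.91 in the Nanog-cKO line, a difference of 2.80 ± 0.34. Each line is 1 genotype, so line and targeted gene cannot be told apart, and the values are a description, since the comparisons share their L-EPSC libraries with the Dox comparisons that chose the members.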

How the results depend on the processing

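The number of members called moved by more than 1.5 times under 2 choices. With the fold thresholds exchanged (1 for the culture comparisons, 0.6 for Dox), 17 members were called in J1 D-EPSCs against ESCs instead of 26, 9 in J1 L-EPSCs against ESCs instead of 15, and 8 with Nanog reduction instead of 4, of which 2 were lower. With the 2 groups fitted alone, 13 members were called on conversion of the Oct4-cKO line instead of 22. Called members with a mean of at least 100 made 128 pairs of a member and a comparison, of which 93 were called under every alternative and 0 reversed under any. Leaving out 1 library at a time gave 24 to 25, 14 to 16 and 29 to 32 members in the J1 comparisons (D-EPSC against ESC, L-EPSC against ESC, L-EPSC against D-EPSC), 17 to 18, 10 to 12 and 15 to 22 on conversion and 35 to 37, 27 to 29 and 3 to 5 with Dox in the Oct4-cKO, Sox2-cKO and Nanog-cKO lines. Beside the calls named above, those of Dhx58, Irf1 and Isg15 in J1 D-EPSCs against ESCs, of Dhx58 and Irf1 in J1 L-EPSCs against D-EPSCs, of Sp100 in J1 L-EPSCs against ESCs and of Adar on conversion of the Nanog-cKO line were lost without 1 library, again of members with a mean of at least 100. Calls at lower counts, as the ranges show, were lost too. With a group left at 1 library, that library is assumed to vary like the other groups. Members that edgeR called with Dox were 40, 31 and 4, and DESeq2 38, 28 and 3. Replicate numbers were shared between groups, but deviations of same-numbered libraries correlated by -0.02 to 0.03, so the numbers were not taken to pair them. With the replicate block the members called were 26, 15, 32, 22, 14, 19, 38, 30 and 4 over the 9 comparisons in the order above. With either spacing of the response element, 53.8% of the matched promoters held a core, against 6.90% of all genes, again a description of a list of interferon targets.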
